A study of Homo sapiens with 2 samples.

Results

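The genes described here carry the unfolded protein response and the amino acid stress response, 34 genes chosen by name from a working list. They were taken from 19775 genes with a single symbol on the array. The list holds the sensors and transcription factors of both responses and genes known to depend on ATF4, XBP1 or ATF6. All 34 had at least 1 probe set (a group of short probes for 1 transcript) of their own, 74 in all. A further 3 probe sets carried a member's symbol together with another gene's and were not used for gene values.

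Messenger RNA was measured on Affymetrix arrays in K562, a human erythroleukemia cell line grown in RPMI-1640 with serum. One culture received 3 µg of a control mimic, and the other 3 µg of a miR-34a mimic, a synthetic RNA made to act as the miRNA does. Both were introduced by nucleofection, and the labels give 24 hours for both. There was 1 array per group, so no value has a replicate, no test between groups exists, and precision is limited by having 2 arrays. The labels do not say how much mimic entered the cells, give no sequence for either mimic, and a response to the transfection that both cultures shared is not visible in a ratio between them.

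Proteins that misfold in the endoplasmic reticulum (ER) are sensed by ERN1 (IRE1), EIF2AK3 (PERK) and ATF6. IRE1 splices the XBP1 messenger, ATF6 is cut at the Golgi into a free transcription factor, and both factors raise chaperones and the machinery of ER-associated degradation (ERAD). PERK and the amino acid sensor EIF2AK4 (GCN2) phosphorylate the initiation factor eIF2, which slows translation in general while it lets ATF4 be made. ATF4 then raises genes of amino acid synthesis, amino acid import and stress feedback. Splicing, cleavage and phosphorylation are not measured by these arrays, which report messenger levels only.

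The natural miRNA after which the mimic is named is shown first, because it is what sets the cultures apart. The capitals mark its seed, bases 2 to 8, which pair with target messengers. RefSeq places it at chr1:9151735-9151756 on the minus strand of GRCh38.p14.
hsa-miR-34a-5p: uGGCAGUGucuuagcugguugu

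The promoters of the members were searched for the elements through which ATF6, XBP1 and ATF4 are known to act. Windows from 250 bases before to 50 bases after each start, from RefSeq (GRCh38.p14), were searched on both strands. Of the 34 genes 32 matched the table by symbol, and SHMT2 and SLC7A11 did not. The ER stress element, bound by ATF6 and XBP1 together with NF-Y, was searched as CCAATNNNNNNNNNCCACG. It was present for 0.0916% of 27305 genes and for 5 of the 32 members, namely XBP1, CALR, CANX, HSP90B1 and PDIA6. The elements of these genes follow, 5′ to 3′, with the motif in capitals. The first lies at chr22:28800603-28800621 on the minus strand, and the others at chr19:12938384-12938402 (minus), chr5:179698778-179698796 (plus), chr12:103930216-103930234 (plus) and chr2:10812853-10812871 (minus).
XBP1: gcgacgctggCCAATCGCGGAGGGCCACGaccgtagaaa
CALR: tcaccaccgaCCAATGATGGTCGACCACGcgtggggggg
CANX: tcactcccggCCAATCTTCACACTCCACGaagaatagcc
HSP90B1: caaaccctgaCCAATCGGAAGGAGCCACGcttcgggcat
PDIA6: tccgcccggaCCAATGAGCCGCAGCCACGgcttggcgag

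HSP90B1 held another such element in the same window, on the opposite strand. The ATF4 composite site, searched as TGATGNAA, was present for 4.46% of genes and for 5 members: ASNS, ATF3, CHAC1, HERPUD1 and SLC3A2. The XBP1 core TGACGTGG was present for 0.927% of genes and for HYOU1 among the members. No member's windows held more than one of these motifs. The sites of ASNS, at chr7:97872469-97872476 (minus), of CHAC1, at chr15:40953262-40953269 (minus), and of HYOU1, at chr11:119057386-119057393 (minus), are shown as examples of the short motifs.
ASNS: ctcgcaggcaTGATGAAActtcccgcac
CHAC1: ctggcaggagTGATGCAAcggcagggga
HYOU1: gctggccccgTGACGTGGtccaatccca
A match describes letters in a window and is not evidence of binding in these cells.

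Across the whole set the shifts were small, and more members were lower than higher. Of the 34 genes, 33 passed the filter on dim signals (a mean level at or above the array median, about 39.0 units), and 22 were lower and 11 higher with miR-34a. Of all 12774 expressed genes 50% were lower, since ratios were centred on their median. The median log2 ratio (miR-34a mimic over control mimic) was -0.05 over the members. XBP1 and TRIB3 were at least 1.5-fold lower, 2 of 33, against 3.01% of all expressed genes, and 0 members were at least 1.5-fold higher, against 3.28%. No member reached 2-fold in either direction, which 0.548% of genes did downward and 0.595% upward. TRIB3 only just reached the 1.5-fold limit at -0.60, while SLC7A11 at 0.56 and SLC7A5 at -0.51 fell short of it.

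Other probe sets of the same gene are the only internal check, and their pooled SD about the gene's mean was 0.24 on the log2 scale, for all genes and for the members alike. This spread covers differences between probes on the same RNA and not differences between cultures. Of the 17 members with more than one expressed probe set, 10 had all of them on the same side of 0. The same share over all genes was not computed, so this count shows neither good nor poor agreement. A signal at or below 75.4 units, the highest of 27 bacterial control probe sets without target RNA, is called within background here.

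**Figure D1:**
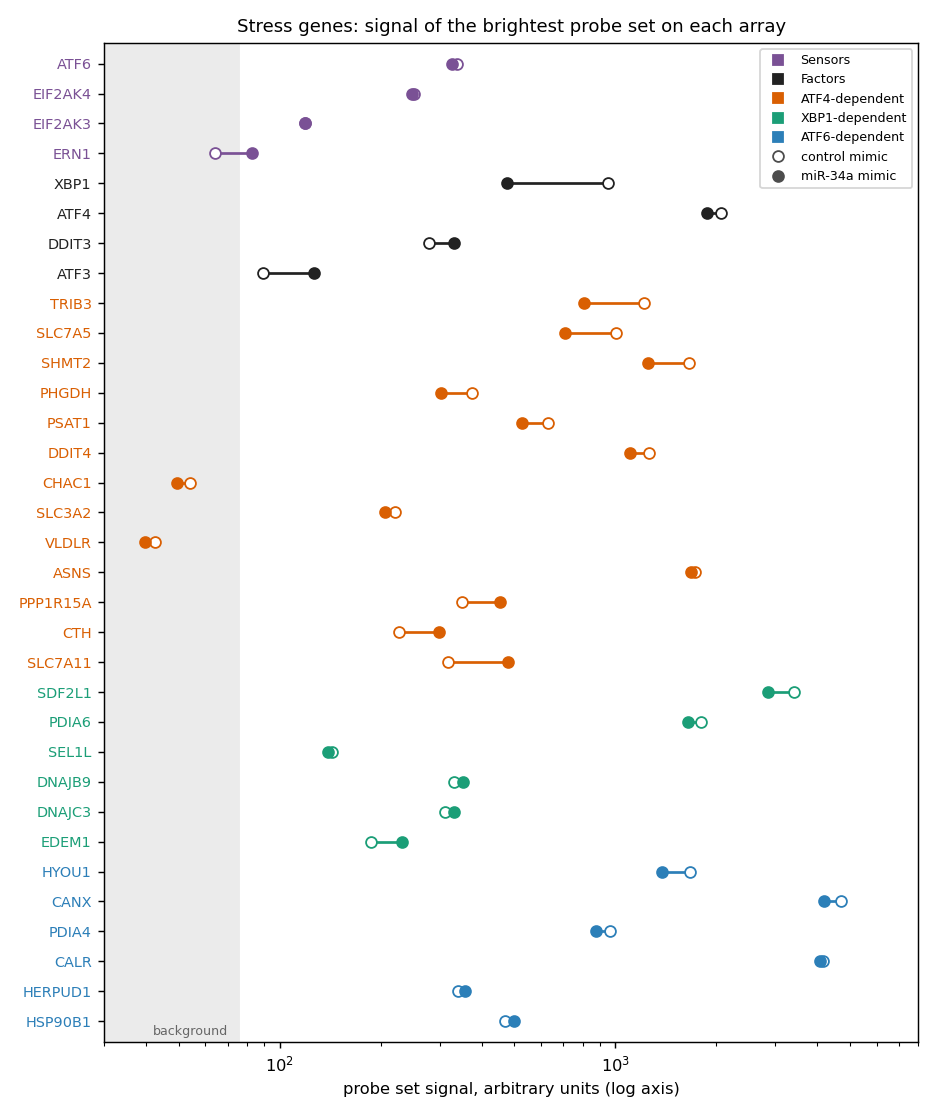
Signal of the brightest expressed probe set of each of the 33 expressed genes (horizontal, log axis, arbitrary units) on the control array (open) and the miR-34a array (filled), coloured by role. The grey zone ends at the background limit of 75.4, and XBP1 has the widest gap, from 950.56 to 476.28.

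Of the 4 sensors, EIF2AK3, EIF2AK4 and ATF6 had almost the same signals on both arrays, and ERN1 read higher near the background limit. EIF2AK3, the PERK kinase, read 119.16 with the control mimic and 118.73 with miR-34a (values are given in this order throughout), a log2 ratio of -0.01. EIF2AK4, the GCN2 kinase that binds uncharged tRNA, read 250.36 and 247.22, or -0.03. ATF6 read 337.12 and 326.27 on its brightest probe set, a log2 ratio of -0.05, and its 4 probe sets all lay below 0, down to -0.24. On the brightest probe sets these differences were smaller than the spread between probe sets, 0.24. ERN1, the IRE1 kinase and endonuclease, was the dimmest sensor, with a control signal of 64.08 within background and a miR-34a signal of 82.68. It was at least 1.10-fold higher against the background limit, and its 3 probe sets ran from -0.05 to 0.30. The median over the 4 sensors was -0.02.

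Among the transcription factors, XBP1 stood apart. Its brighter probe set read 950.56 with the control mimic and 476.28 with miR-34a, a log2 ratio of -0.98, and 0.587% of all expressed genes had a lower ratio. XBP1 encodes the factor that IRE1 activates by splicing, and its promoter holds the ER stress element printed above. Its other probe set read 46.63 and 58.13, both within background, so it gives no usable second measurement of XBP1. The mean of both was -0.37, and XBP1 was therefore called 1.5-fold lower on 1 informative probe set. The ratio of 3′ to 5′ signal, which grows as RNA degrades, stood at 3.07 (control) and 3.53 (miR-34a) for GAPDH, and its part in the ratio of XBP1 was not tested.

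ATF4, ATF3 and DDIT3 lay closer to 0. ATF4, the main factor of the amino acid response, read 2068.85 and 1880.67, a log2 ratio of -0.15 on its single probe set. DDIT3 (CHOP), a factor that ATF4 raises in prolonged stress, read 278.99 and 329.81, or 0.22. ATF3, another factor below ATF4, had 2 expressed probe sets that disagreed: the first read 89.39 and 126.23, at 0.43, and the other 100.79 and 84.97, at -0.22. A direction for ATF3 cannot be read from these. The ratios of ATF4 and DDIT3 were both smaller than the spread between probe sets, 0.24.

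**Figure D2:**
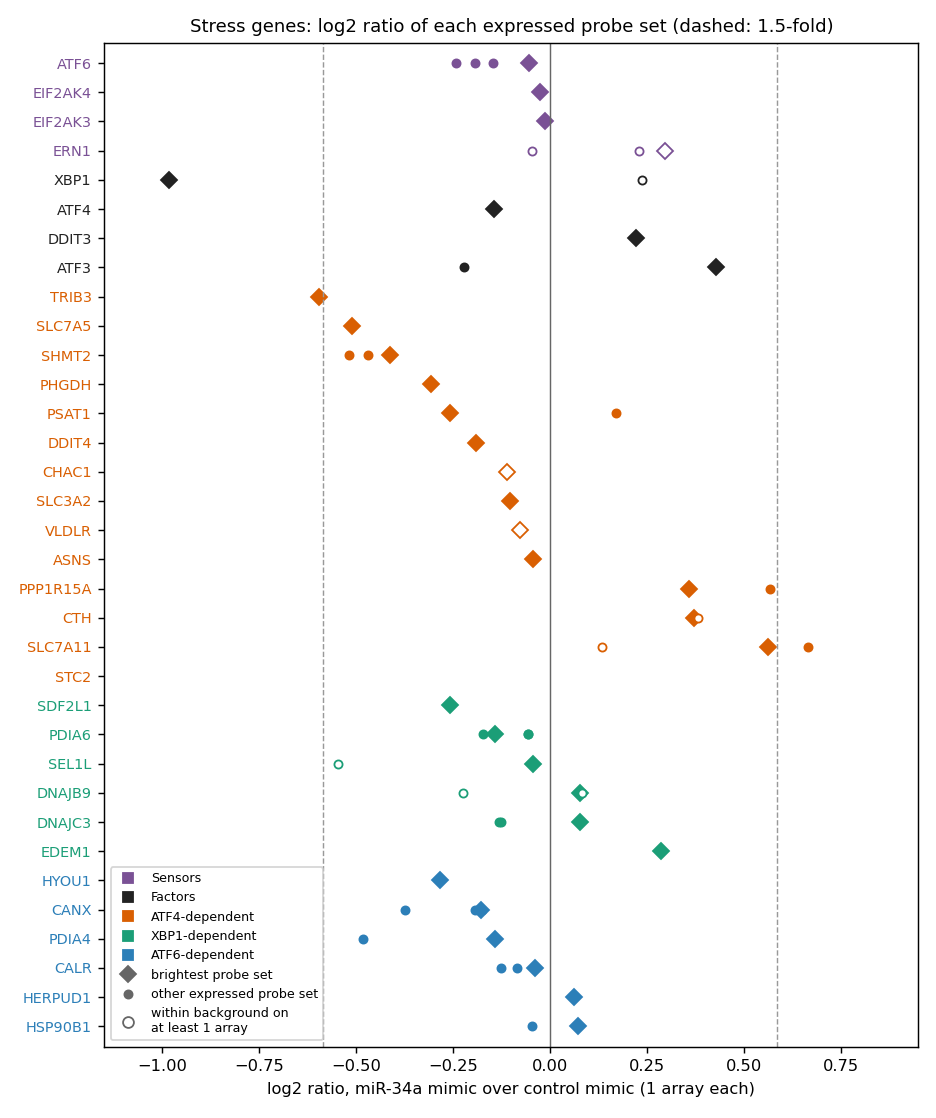
Log2 ratio of miR-34a over control mimic (horizontal) for each expressed probe set of the members, grouped by role, with diamonds for the brightest probe set and open symbols where a signal lay within background on at least 1 array. STC2 has no expressed probe set. The probe sets of XBP1 (-0.98 and 0.24) lie farthest apart, but the latter is within background on both arrays and is no usable second measurement.

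The 16 ATF4-dependent genes did not move as a block. Of the 15 expressed, 10 were lower and 5 higher, against 50% lower of all expressed genes. Ratios ran from -0.60 for TRIB3 to 0.56 for SLC7A11, with a median of -0.10. That median was 0.06 when the less specific probe set classes (names ending in _s_at, _x_at or _a_at) were left out, so its sign depends on the probe sets used. TRIB3, a pseudokinase that restrains ATF4 and AKT, read 1217.37 and 804.85, a log2 ratio of -0.60. Its ratio is close to the 1.5-fold limit and fell short of it with loess or quantile normalization or a pseudocount 4 times as large. A ratio below that of TRIB3 was seen in 2.79% of expressed genes.

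The 3 members that are enzymes of serine and one-carbon metabolism were lower on their brightest probe set. SHMT2, which passes a carbon from serine to folate in mitochondria, read 1659.48 and 1251.02, and its 3 probe sets agreed at -0.41, -0.47 and -0.52. PHGDH, the first enzyme of serine synthesis, read 374.71 and 302.10, a log2 ratio of -0.31. PSAT1, the second enzyme, read 630.77 and 528.48, at -0.26, but its other probe set gave 0.17. A probe set that PHGDH shares with MZT2A and MZT2B gave 0.02 at signals of 4404.72 and 4498.61, and which gene it reads is not known here. Among these, several probe sets agreed for SHMT2 alone. PSPH, the last enzyme of serine synthesis and not a member, had a ratio of 0.13. Its other probe sets disagreed, at -0.10 (190.72 and 178.50) and at 0.175 within background, so its direction is not settled.

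Genes of cysteine supply lay on the other side of 0; this pairing was noticed after the values were seen. SLC7A11, the light chain of the cystine importer, read 317.37 and 478.99, a log2 ratio of 0.56. Its next probe set read 214.18 and 350.77, at 0.67, and the remaining one lay within background at 0.13. CTH, which makes cysteine from cystathionine, read 226.12 and 298.66, at 0.37. Its dimmer probe set gave 0.38, from 56.95 to 79.31, and was at least 1.05-fold higher against the background limit. All 3 probe sets of SLC7A11 and both of CTH were thus higher with miR-34a, though the dimmest of each gene was within background on the control array. CHAC1, which breaks down the cysteine-containing peptide glutathione, read 54.14 and 49.48, which is within background on either array.

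The other transporter chains did not go with SLC7A11. SLC7A5 (LAT1), the light chain that imports leucine and other large neutral amino acids, read 1006.15 and 706.60, a log2 ratio of -0.51 on 1 probe set. SLC3A2, the heavy chain that pairs with both SLC7A5 and SLC7A11, read 220.88 and 205.81, at -0.10. The light chains differed from each other by more than the spread between probe sets, and their shared partner lay between them. ASNS, the asparagine synthetase and a classic ATF4 target whose promoter site is printed above, read 1724.55 and 1682.97, at -0.04.

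Feedback and growth regulators below ATF4 were divided. PPP1R15A (GADD34), which leads a phosphatase to eIF2 and so restores translation, read 348.00 and 452.86 on its brightest probe set, at 0.36, and 235.00 and 357.64 on the other, at 0.57. DDIT4 (REDD1), an inhibitor of mTORC1, read 1259.08 and 1108.81, at -0.19. STC2, a secreted glycoprotein gene, read at most 39.30 and stayed below the filter. VLDLR, a lipoprotein receptor gene, read 42.38 and 39.73, within background on both arrays.

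The XBP1-dependent genes were split evenly on their brightest probe sets. Of 6 genes 3 were lower and 3 higher, with a median of 0.02 and no member past 1.5-fold. Of their 11 probe sets above background on both arrays, 8 were lower and 3 higher, against 52.8% lower of all such probe sets. XBP1 and ATF6 share many targets, so this assignment is a working one. DNAJB9 (ERdj4), an ER co-chaperone that also holds IRE1 in check, read 329.69 and 351.06, a log2 ratio of 0.08, and its probe sets ran from -0.22 to 0.08. DNAJC3 (p58IPK), another co-chaperone, read 310.95 and 331.26, at 0.08. Its other probe sets lay at -0.128, -0.133 and -0.100, the last of them below the filter. EDEM1, which hands misfolded glycoproteins to ERAD, had the highest ratio of the group, with 186.49 and 232.01, at 0.28 on 1 probe set. SEL1L, the scaffold of the ERAD ubiquitin ligase, read 143.46 and 139.66, at -0.04. Its other probe sets lay within background on both arrays and pointed in different directions, from -0.55 to 0.80.

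The other genes of this group were bright and slightly lower. SDF2L1, a partner of ER chaperones, read 3400.80 and 2857.26, at -0.26. PDIA6, a protein disulfide isomerase, read 1804.33 and 1645.70, at -0.14, and its 4 probe sets all lay between -0.17 and -0.06. The median of the group was -0.08 when all probe sets of a gene were averaged, so it has no settled sign.

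All ATF6-dependent genes lay within 1.5-fold. Of 6 genes 4 were lower and 2 higher, against 50% lower of all expressed genes, with a median of -0.09 and a range from -0.28 to 0.07. HYOU1, a large ER chaperone of the HSP70 superfamily, read 1672.01 and 1379.14, at -0.28. CANX (calnexin), a membrane lectin that folds glycoproteins, read 4707.53 and 4182.33, at -0.18, and all 4 expressed probe sets were lower, down to -0.37. CALR (calreticulin), its soluble counterpart, read 4167.98 and 4078.89, at -0.04, with its 3 probe sets at or above -0.13.

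PDIA4, a disulfide isomerase, read 960.61 and 874.13, at -0.14, while its more specific probe set gave -0.48, from 449.31 to 319.46. HERPUD1, an ERAD adaptor in the ER membrane, read 339.01 and 356.58, at 0.06. HSP90B1 (GRP94), the HSP90 of the ER, read 470.47 and 498.58, at 0.07, on the brighter of the 2 probe sets that carry its symbol alone, and 158.72 and 154.16, at -0.05, on the other. The probe sets it shares with MIR3652 gave -0.06 and 0.04. The 5 genes with an ER stress element in their windows therefore ran from -0.98 for XBP1 to 0.07 for HSP90B1, and the 4 chaperone genes among them lay within 0.18 of 0.

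The direction of members differed between groups of signal but did not change steadily from bright to dim. This split by signal was not planned beforehand. Among the brightest 25% of expressed genes (signals of 540 and above) 14 of 14 members were lower, against 56% of all genes that bright, and their median was -0.22 against -0.03. Among the next 25% of genes 4 of 13 members were lower, against 50.8%, with a median of 0.08. In the dimmer groups of 25% each, 2 of 3 members were lower in each, against 47.1% and 46.1%. The bright members came from every branch: TRIB3, SLC7A5, SHMT2, PSAT1, DDIT4 and ASNS below ATF4, SDF2L1 and PDIA6 below XBP1, HYOU1, CANX, PDIA4 and CALR below ATF6, and XBP1 and ATF4 themselves. After a loess fit that levels the trend of ratio with signal, 14 of 14 bright members were lower, against 51.6% of genes. The fit moved values little, for example CALR from -0.040 to -0.026, and the part of signal level in this pattern was not tested. Genes of the same pathways outside the list that were as bright included higher and lower ones, such as SLC38A2 at 0.16 and SLC1A5 at -0.20. These examples were picked after the values were seen, and the share of such genes that were lower was not computed. Among the bright ER folding genes outside the list, more were lower than higher.

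Counted by probe sets, 51 of the members' own lay above background on both arrays, and 38 of these (74.5%) were lower, against 52.8% of 15215 such probe sets with a single symbol. Probe sets of a gene read the same RNA and are not independent.

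**Figure D3:**
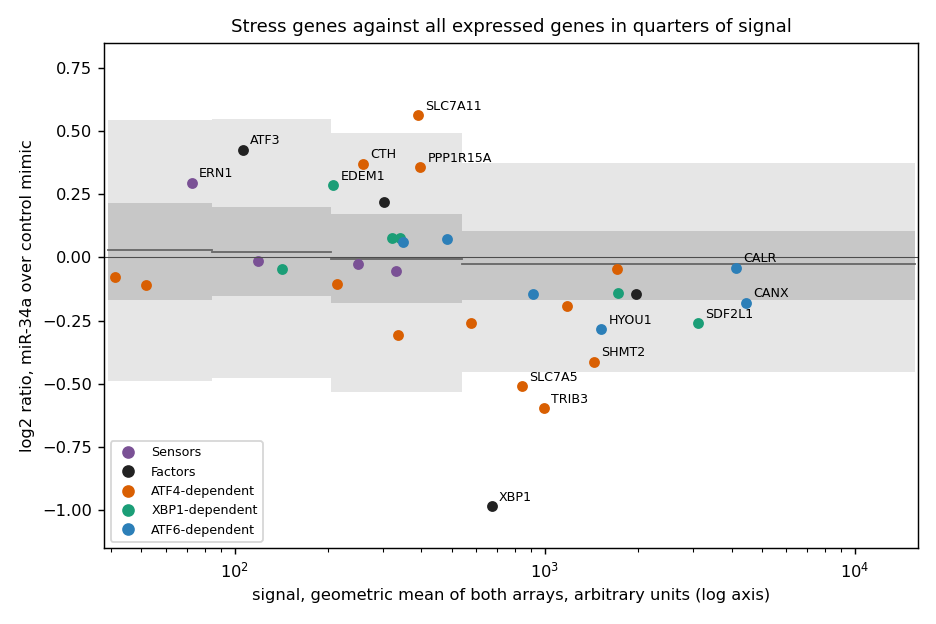
Log2 ratio of the 33 expressed members (vertical) against signal (horizontal, log axis), over bands for all expressed genes in 4 equal groups by signal (dark, 25th to 75th percentile; light, 5th to 95th; line, median). XBP1, TRIB3 and SLC7A5 lie below the light band of the brightest group, which ends at -0.46, and SLC7A11 above that of the next, which ends at 0.49.

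Genes of the same pathways outside the list gave a similar picture of small shifts. Of 29 expressed further ATF4 targets 16 were lower and 13 higher, against 50% lower of all expressed genes, with a median of -0.06. Of these, 1 was at least 1.5-fold lower and 1 at least 1.5-fold higher, against 3.01% and 3.28% of all expressed genes. The highest was GDF15, a stress-induced secreted factor, which read 270.44 and 636.77, a log2 ratio of 1.18, with a dim probe set at 0.59. VEGFA, the endothelial growth factor, followed at 0.46, but its next brightest probe set gave 0.04, and the dimmer ones 0.20 and 0.35. The lowest was SLC7A1, the importer of arginine and lysine, which read 1023.73 and 665.79, at -0.62, with a second bright probe set at -0.63 and a dim one at 0.17. CEBPG, a dimer partner of ATF4, was next at -0.54, with its other probe set at -0.45.

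Of 23 expressed further ER folding and ERAD genes 16 were lower and 7 higher, against 50% lower of all expressed genes. Their median was -0.12, and no gene was past 1.5-fold, against 3.01% of all expressed genes downward and 3.28% upward. ERO1A, the oxidase that recharges disulfide isomerases, was lowest at -0.58, from 277.43 to 182.46, and all 3 of its probe sets were lower. DERL1, an ERAD channel subunit, stood at -0.45 and was lower on 4 of 4 probe sets. SEC24D, a coat subunit of vesicles that leave the ER, was highest at 0.50, and SIL1, the exchange factor of BiP, had 0.41. HSPA5 (BiP), the chaperone that holds the sensors inactive, read 2242.40 and 2339.00, at 0.05.

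Of 17 expressed genes of the eIF2 pathway and its sensors 9 were lower and 8 higher, against 50% lower of all expressed genes, with a median of -0.03. They include ERN2, counted on a probe set of a less specific class that read 6136.15 and 6384.88. Its other probe set read 45.58 and 67.17, within background on both arrays, and what the bright one reads was not tested. EIF2B4 and EIF2B1, subunits of the exchange factor that recharges eIF2, were lowest at -0.40 and -0.27. MBTPS2, a protease that cuts ATF6, was highest at 0.41, and ATF6B, a relative of ATF6, had 0.29. EIF2AK1, the heme-regulated eIF2 kinase of red cell precursors, read 1660.55 and 1866.73, at 0.16, with a second probe set at -0.05. EIF2S1, the phosphorylated subunit of eIF2, had -0.07.

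**Figure D4:**
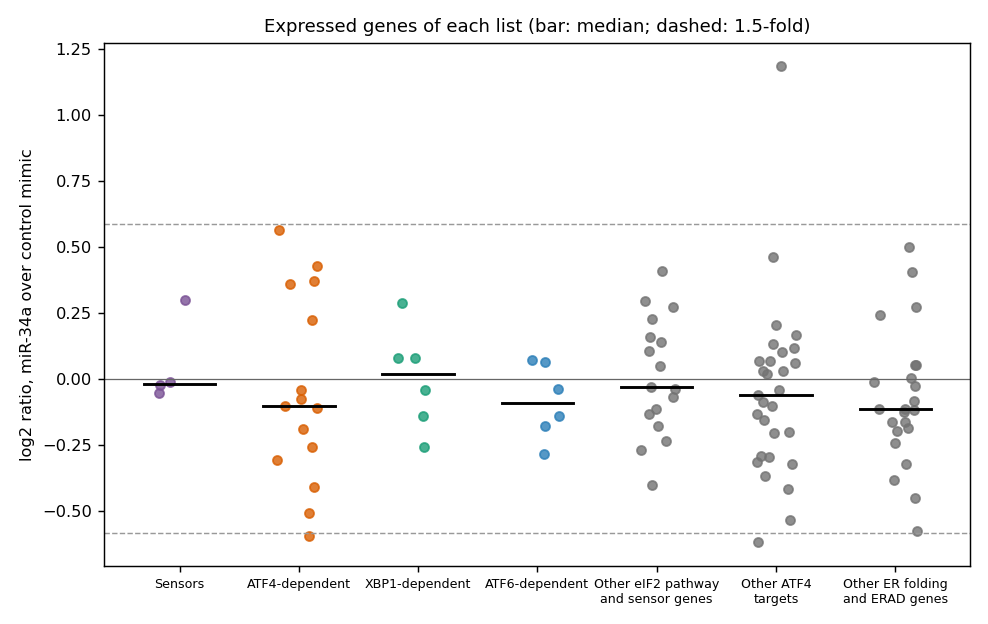
Log2 ratio (vertical) of the expressed sensors, the ATF4-, XBP1- and ATF6-dependent genes and the lists of further pathway genes. Each point is 1 gene, with a bar at the median and dashed lines at 1.5-fold. The factors XBP1 and ATF4 are not drawn. All medians drawn lie between -0.12 and 0.02, and GDF15 at 1.18 is the only gene past 2-fold.

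The identity of the cells was checked by markers. The erythroid markers reported here, 6 in all, were expressed at 985.26 or more on the control array: TFRC, KLF1, HBE1, TAL1, GATA1 and HBZ. Of these, 5 were higher with miR-34a, against 50% of all expressed genes, with ratios from -0.12 to 0.84. The part of the markers in the values of the stress genes was not tested. Among markers of other cell types, LYZ and COL1A1 lay above background on both arrays, while ALB, MS4A1, CD3E, CD14 and KRT5 did not. Each of these calls rests on 1 probe set of a less specific class, which read 517.53 and 562.79 for LYZ and 120.80 and 118.59 for COL1A1. The other probe sets of LYZ and COL1A1 lay within background on both arrays, and what the bright ones read was not tested. Median signals of the arrays were 39.5 and 40.1.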

How the data were processed

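The deposited table holds probe set intensity values for the 2 arrays, linear and in arbitrary units, with a lowest value of 1 and no detection calls. The software, background correction and scaling behind it were not given in the sources used here. Per the labels' protocols, 15 µg of total RNA went into each labelling reaction. Columns of other samples numbered 0.

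Ratios are differences of log2(intensity + 14.9), where 14.9 is the 25th percentile of the deposited signals, less the median over expressed genes (0.0090); this scale understates the change of dim genes. A gene took its brightest expressed probe set. Symbols came from the platform annotation, and a comparison by gene ID with RefSeq changed 0 of them. Members, role lists, further pathway lists and tests were chosen with earlier results of these data known. All members are named; of each further list, the 2 highest and 2 lowest genes, with HSPA5, EIF2AK1 and EIF2S1. PSPH, ERN2 and the genes under the other observations were added after their values were seen. Genes were counted by size because 1 array per group allows no test. The calculation was tested on simulated data. A planned look at protein ends was not run, and some listed marker genes are not reported here. Python 3.11.15, NumPy 2.4.6, pandas 2.3.3, statsmodels 0.14.6 and matplotlib 3.10.9 were used.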

Additional observations from a re-analysis of the deposited data

How the results depend on the processing

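Settings tried in place of the main ones concerned probe sets per gene, role lists, the size threshold, normalization, centring, pseudocount and filter. The filter for signals above background on both arrays was chosen after seeing the data. The number of members at least 1.5-fold lower was 2 and went to 1 (XBP1) with a pseudocount 4 times as large, with quantile and with loess normalization, to 1 (TRIB3) with all probe sets of a gene averaged, and to 0 at 2-fold. Without the less specific probe set classes 12 members were lower, of 20 expressed. The median of all members stayed between -0.08 and -0.04, and that of the ATF6-dependent genes between -0.19 and -0.07. The median of the ATF4-dependent genes turned to 0.06 without those classes, and that of the XBP1-dependent genes to -0.08 with probe sets averaged. Of 373 values of single members under alternatives, 369 lay within 0.24 of the main value. The others were XBP1 at -0.37, ATF3 at 0.11 and SEL1L at -0.29 with probe sets averaged, and PDIA4 at -0.48 without those classes. DNAJB9 and DNAJC3, both at 0.08, turned to -0.02 and -0.05 with probe sets averaged, and neither XBP1 nor TRIB3 changed sign. Depth does not apply to arrays; signals near the background limit of 75.4 restrict ERN1, CHAC1 and VLDLR.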

Other observations

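Groups within the further pathway lists were also looked at after their values were seen. The eIF2B complex recharges the initiation factor eIF2 and is what phosphorylated eIF2 blocks. Its 5 subunit genes had ratios below 0, as 50% of all expressed genes did and 56% of the brightest 25%, with EIF2B4 at -0.40, EIF2B1 at -0.27, EIF2B5 at -0.24, EIF2B3 at -0.04 and EIF2B2 at -0.03 on the log2 scale, and the second probe sets of EIF2B4 and EIF2B5 gave -0.11 and -0.72. The cytosolic tRNA synthetase genes, which ATF4 raises together, did not share a direction: WARS1 (-0.30), SARS1 (-0.16), IARS1 (-0.09) and AARS1 (-0.06) were lower, and GARS1 (0.03), NARS1 (0.10), CARS1 (0.11, with 2 of its 4 probe sets lower) and EPRS1 (0.20) were higher. The proline synthesis genes PYCR1 and ALDH18A1 were lower, at -0.37 and -0.29. The glutamine transporter genes differed, SLC1A5 at -0.20 and SLC38A2 at 0.16, the latter higher on 3 of 3 probe sets. Each of these values comes from 1 array per group.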
